A study of Mus musculus with 10 samples.

Results

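The interleukin-1 (IL-1) family and its inflammasome were followed through sorted microglia of C57BL/6 wild-type mouse brain, in cells carrying CD11c on their surface and in cells lacking it. The 9 genes, named by symbol, were the ligands Il1a, Il1b and Il18, the receptor antagonist Il1rn, the receptors Il1r1, Il1r2 and Il1rap, the sensor Nlrp3 and the protease Casp1. All 9 were found among the 49315 gene IDs of the count tables, and all 9 passed the filter on low counts at both ages. RNA-seq libraries came from postnatal day 5 (P5) CD11c+ cells (3), P5 CD11c- cells (3), 9-month CD11c+ cells (2) and 9-month CD11c- cells (2), all wild type with no treatment named. The SMART-Seq v4 low-input kit is named for the 9-month libraries only, so age and library preparation cannot be told apart, and no test was made between ages within a subset. The labels do not say whether replicates came from separate animals or pools, so p-values measure only the spread between these libraries, which may be technical.

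IL-1α and IL-1β are made as precursors and signal through the same receptor, IL-1R1, which needs the accessory chain IL-1RAcP, the product of Il1rap. The antagonist IL-1Ra, from Il1rn, and the decoy receptor IL-1R2 hold that signal back. In microglia and other myeloid cells, NLRP3 assembles with the adaptor ASC and caspase-1 into an inflammasome, and caspase-1 then cleaves the precursors of IL-1β and IL-18. Messenger RNA levels do not show cleavage or release.

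In the coordinates of the count tables, Il1a (ENSMUSG00000027399) lies at chr2:129299610-129309972 and Il1b (ENSMUSG00000027398) at chr2:129364570-129371139, both on the minus strand. Il1rn (ENSMUSG00000026981) lies elsewhere on the same chromosome at chr2:24336853-24351494 on the plus strand. The receptor genes Il1r2 (ENSMUSG00000026073, chr1:40074079-40125231) and Il1r1 (ENSMUSG00000026072, chr1:40225080-40317257) are 99.85 kb apart on the plus strand. Il1rap (ENSMUSG00000022514) lies at chr16:26581704-26730117, Il18 (ENSMUSG00000039217) at chr9:50554827-50581840, Nlrp3 (ENSMUSG00000032691) at chr11:59541568-59566956 and Casp1 (ENSMUSG00000025888) at chr9:5298517-5307265, all on the plus strand. The build is not given in the sources used here, and 91.4% of 49056 gene IDs shared with GENCODE M21, an annotation of GRCm38, had the same coordinates.

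Library totals lay between 2619610 and 25483573 counts. P5 CD11c+ replicate 2 was the shallowest library and stood apart from the rest: 23033 genes reached 1 CPM there (CPM being a gene's counts scaled to a fixed library total of 1000000), against 12762 to 14735 in the other 9 libraries, and its log2(CPM + 1) values correlated with those of the other P5 libraries at 0.80 to 0.84, against 0.972 to 0.996 among the others. Itgax, which encodes CD11c, had 232, 47.5 and 138 TMM-scaled CPM in P5 CD11c+ cells and 30.6, 69.5 and 35.8 in P5 CD11c- cells, so that replicate 2 lay inside the CD11c- range. At 9 months Itgax had 24.8 and 18.0 in CD11c+ cells and 6.22 and 3.89 in CD11c- cells. Levels here are CPM after TMM scaling (trimmed mean of M values, which assumes that most genes do not change) within each age. P5 fold changes of the 9 genes are given with all 6 libraries and again without CD11c+ replicate 2.

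Markers of other cells differed between the subsets. At 9 months 19 of 20 neutrophil marker genes were called lower in CD11c+ cells by edgeR. All 20 homeostatic microglia genes and 12 of 13 border-associated macrophage markers were called higher. Over all genes tested 14.8% were called higher and 18.2% lower. With libraries scaled to the 20 homeostatic microglia genes instead of by TMM, 20 neutrophil markers were lower and 12 border-associated macrophage markers higher. Of the microglia genes themselves 2 were then higher and 1 lower, where 0.534% of all genes were higher and 60.7% lower. The 20 neutrophil genes summed to 0.319% and 0.222% of counts in CD11c+ cells and to 14.2% and 19.3% in CD11c- cells, and S100a9, a neutrophil calcium-binding protein, had 353 and 211 TMM-scaled CPM in CD11c+ cells against 29034 and 49951 in CD11c- cells. Of the 12 monocyte markers 9 were called lower and 2 higher at 9 months. They summed to 0.0766% and 0.0626% in 9-month CD11c+ cells and to 1.18% and 1.41% in 9-month CD11c- cells. At P5 these sums were 0.173%, 0.400% and 0.140% in CD11c+ cells and 0.0328%, 0.109% and 0.104% in CD11c- cells. Of the 10 dendritic cell markers, which share Siglech with the microglia list, 6 were called higher and 0 lower at 9 months. Their sums were 0.195% and 0.216% in 9-month CD11c+ cells and 0.0652% and 0.0608% in 9-month CD11c- cells. The 20 homeostatic microglia markers summed to 7.92% and 7.43% in 9-month CD11c+ cells and to 2.44% and 2.20% in 9-month CD11c- cells. Tmem119, a marker of resident microglia, had 3731 and 2923 TMM-scaled CPM in 9-month CD11c+ cells and 1071 and 770 in 9-month CD11c- cells. At P5 the neutrophil sum was 0.0629%, 0.0495% and 0.0573% in CD11c+ cells and 0.126%, 0.422% and 0.242% in CD11c- cells, and the neutrophil elastase gene Elane had 0 counts in all 3 CD11c+ libraries. The 13 markers of border-associated macrophages summed to 1.07% to 1.18% in P5 CD11c+ cells, replicate 2 included, and to 0.0384% to 0.0604% in P5 CD11c- cells. They summed to 0.171% and 0.155% in 9-month CD11c+ cells and to 0.0529% and 0.0465% in 9-month CD11c- cells. The 14 markers of eosinophils, basophils and mast cells, of which 13 were called lower and 1 higher in 9-month CD11c+ cells, summed to 0.00616% and 0.00503% there and to 0.219% and 0.1905% in 9-month CD11c- cells. The 10 lymphocyte markers, of which 8 were tested and 5 called lower and 1 higher, summed to 0.00215% and 0.00152% in 9-month CD11c+ cells and to 0.0102% and 0.0112% in 9-month CD11c- cells. In sorted pools read in bulk, fewer cells of a type and less RNA per cell cannot be told apart.

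**Figure D1:**
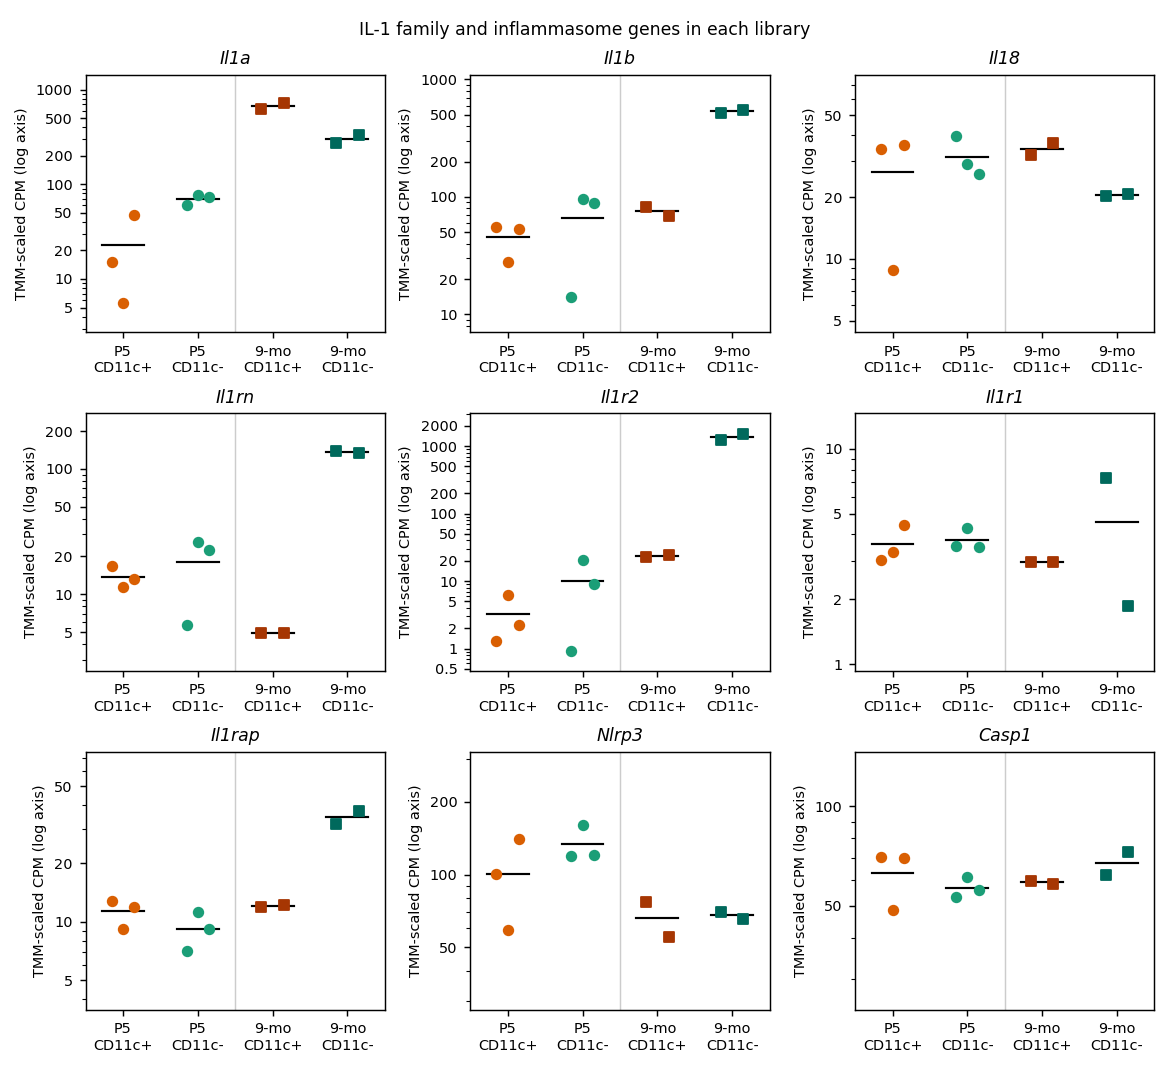
Levels of the 9 genes in each of the 10 libraries, in TMM-scaled CPM on a log axis. Points are libraries, bars are group means, circles are P5 and squares 9 months. The 9-month libraries separate for Il1a and Il18 (CD11c+ above CD11c-) and for Il1b, Il1rn, Il1r2, Il1rap and Casp1 (CD11c+ below CD11c-). Of all genes tested at 9 months 36.1% separate upwards and 33.8% downwards in this way. Scaled to microglia genes Il1a and Il18 turn, and with plain library totals Casp1 turns. At P5 the groups separate for Il1a only (CD11c+ below CD11c-), where 8.39% of all genes separate upwards and 8.68% downwards.

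Il1a and Il1b are neighbours, 54.6 kb apart on chromosome 2 and read from the same strand. The bases directly before each start site are shown because these adjacent genes moved in opposite directions at 9 months under TMM scaling, whereas scaled to microglia genes both were negative (-0.19 for Il1a and -4.17 for Il1b). Both starts match the gene starts in the count tables. The sequences are RefSeq's, on build GRCm38.p6, 5′ to 3′ along the gene's strand, and capitals mark the letters TATAAA. Il1a covers chr2:129309973-129310222 (minus strand) and Il1b covers chr2:129371140-129371389 (minus strand).
Il1a: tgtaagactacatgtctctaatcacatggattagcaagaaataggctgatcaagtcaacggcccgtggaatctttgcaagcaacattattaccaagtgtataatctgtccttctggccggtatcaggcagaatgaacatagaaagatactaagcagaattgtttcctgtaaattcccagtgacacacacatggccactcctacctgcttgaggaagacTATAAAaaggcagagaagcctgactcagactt
Il1b: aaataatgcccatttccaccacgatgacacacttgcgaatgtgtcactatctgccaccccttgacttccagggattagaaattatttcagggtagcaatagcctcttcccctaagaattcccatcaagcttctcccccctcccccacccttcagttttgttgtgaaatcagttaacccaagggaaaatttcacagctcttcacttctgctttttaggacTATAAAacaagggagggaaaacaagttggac
TATAAA, searched on the gene strand, lay 32 to 27 bases before the start in Il1a and 31 to 26 bases before it in Il1b. It occurred in 8.32% of 32851 mouse promoter windows of 250 bases before to 50 after the start. GAGGAA, the core letters bound by the myeloid factor PU.1, was searched on both strands and lay 41 to 36 bases before the start of Il1a, not overlapping TATAAA, and in 28.3% of all windows. No GAGGAA was found in the Il1b window, and neither window held TTGCNNAA, the letters of a C/EBP motif (10.8% of all windows, both strands). These are matches of letters and not evidence of binding.

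At 9 months the IL-1 genes divided between the subsets. Of the 9 genes, 2 were higher in CD11c+ cells (Il1a and Il18), 4 were lower (Il1b, Il1rn, Il1r2 and Il1rap) and 3 did not pass (Il1r1, Nlrp3 and Casp1), by edgeR's quasi-likelihood test with Benjamini-Hochberg adjustment over 15740 genes at a threshold of 0.05. In that comparison 33% of all genes were called, 14.8% higher and 18.2% lower. The libraries of Il1a and Il18 lay with all CD11c+ above all CD11c-, as for 36.1% of genes, and those of Il1b, Il1rn, Il1r2, Il1rap and Casp1 with all CD11c+ below all CD11c-, as for 33.8%. The median log2 fold change of the 9 genes was -0.62, against 0.02 over all genes tested. Scaled instead to the 20 homeostatic microglia genes, which were all 20 higher in CD11c+ cells, the median of all genes moved to -1.32, and Il1a and Il18 changed sign. Under that scaling 0 of the 9 genes were higher, 8 were lower and 1 (Il1a) did not pass, with a median of -1.98, where 61.2% of all genes were called, 0.534% higher and 60.7% lower. Il1r1 (-1.98, adjusted p = 0.0326, edgeR), Nlrp3 and Casp1 were called under that scaling and not under TMM.

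Il1a, which encodes the IL-1α alarmin, had 620 and 720 TMM-scaled CPM in 9-month CD11c+ cells, against 275 and 329 in 9-month CD11c- cells. The groups did not overlap. The log2 fold change was 1.15 ± 0.16 (SE, adjusted p = 0.00244, 2 against 2 libraries, edgeR), a 2.22-fold higher level, and it was -0.19 (adjusted p = 0.379) under scaling to microglia genes, where the median of all genes was -1.32. Per 1000 counts of the microglia markers, Il1a had 8.81 and 11.1 counts in CD11c+ cells and 10.5 and 12.3 in CD11c- cells, so on that measure the ranges overlapped. Immediate-early genes, 15 in all, summed to 4.39% and 5.09% of counts in 9-month CD11c+ cells and to 3.16% and 2.601% in 9-month CD11c- cells. The part of these marker shifts in the Il1a difference was not tested.

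At P5 Il1a had 14.98, 5.52 and 47.3 TMM-scaled CPM in CD11c+ cells, against 61.0, 76.8 and 72.8 in CD11c- cells. All CD11c+ libraries lay below all CD11c- libraries, as they did for 8.68% of all genes, and Il1a was the 1 member of 9 whose groups separated at this age (0 members had all CD11c+ libraries above, as 8.39% of genes did). Its log2 fold change was -1.60 ± 0.68 (SE, adjusted p = 0.727, edgeR) and did not pass the test. The spread lay mainly on the CD11c+ side, where replicate 2 held 15 Il1a counts. Replicate 3, the highest, had an immediate-early sum of 1.74% against 0.622% to 0.948% in the other 5 P5 libraries. CD11c+ replicate 1 and CD11c- replicate 1 had close sums, 0.622% and 0.667%, with Il1a at 14.98 and 61.0 TMM-scaled CPM. The part of immediate-early genes in this spread was not tested. Without CD11c+ replicate 2 the log2 fold change was -1.14 ± 0.42 (adjusted p = 0.133).

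An opposite-strand gene, Gm14023, shares 222 of the 1974 exonic bases of Il1a. Gm14023 had 48.1 and 48.7 TMM-scaled CPM in 9-month CD11c+ cells, against 25.6 and 44.0 in CD11c- cells, below Il1a in each library. Il1b shares 25 exonic bases with opposite-strand Il1bos, at 2.44 TMM-scaled CPM or lower in every library. Gm20319, which shares 552 bases with Il1rap, held at most 4 counts in any library. Strand use in counting is not given in the sources used here, so reads in shared bases cannot be assigned to either gene with certainty.

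Il1b, which encodes the secreted cytokine that caspase-1 matures, ran the other way. It had 82.7 and 69.1 TMM-scaled CPM in 9-month CD11c+ cells, against 518 and 551 in 9-month CD11c- cells. That gave a log2 fold change of -2.82 ± 0.16 (SE, adjusted p = 5.88e-05, edgeR), a level 7.04-fold lower in CD11c+ cells. Per 1000 neutrophil-marker counts, Il1b had 29.2 and 35.8 counts in CD11c+ cells and 3.39 and 2.36 in CD11c- cells. The marker sum itself was far lower in CD11c+ cells, so any gene that fell less than this sum rises on that measure. Nlrp3, which did not pass at 9 months, had 27.2 and 28.6 in CD11c+ cells and 0.460 and 0.281 in CD11c- cells. Per 1000 microglia-marker counts Il1b had 1.18 and 1.07 in CD11c+ cells and 19.8 and 20.6 in CD11c- cells. The part of these other cells in the Il1b difference was not tested.

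At P5 Il1b had 55.6, 27.98 and 53.9 TMM-scaled CPM in CD11c+ cells, against 14.2, 96.2 and 89.1 in CD11c- cells. CD11c- replicate 1 lay below every CD11c+ library, while the other CD11c- replicates lay above all of them. The fold change did not pass, at a log2 value of -0.53 ± 0.67 (SE, adjusted p = 0.858, edgeR), or -0.25 ± 0.66 (adjusted p = 0.846) without CD11c+ replicate 2. The same CD11c- replicate had the lowest neutrophil sum of its group, 0.126%, and the lowest Il1rn and Il1r2. It also had the lowest monocyte sum of its group, 0.0328%, and the highest microglia sum. Every P5 CD11c+ library had a lower neutrophil sum than this replicate, 0.0495% to 0.0629%, but higher Il1b, Il1rn and Il1r2. The part of these marker sums in the P5 spread of Il1b was not tested.

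The balance of the IL-1 ligands can be read from the share of Il1b in the summed counts of Il1a and Il1b. It was 11.8% and 8.76% in 9-month CD11c+ cells, against 65.3% and 62.6% in 9-month CD11c- cells. At P5 it was 78.8%, 83.5% and 53.3% in CD11c+ cells and 18.9%, 55.6% and 55.1% in CD11c- cells. The 9-month groups lay far apart on this share, and the P5 groups overlapped.

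Il18, the other caspase-1 substrate among the ligands, had 31.98 and 36.5 TMM-scaled CPM in 9-month CD11c+ cells, against 20.4 and 20.6 in CD11c- cells. Its log2 fold change was 0.74 ± 0.19 (SE, adjusted p = 0.0258, edgeR), and it was -0.60 (adjusted p = 0.0408) under scaling to microglia genes. The call was lost without CD11c+ replicate 2 (0.68, adjusted p = 0.146) or without CD11c- replicate 1 (0.73, adjusted p = 0.0640). At P5 Il18 had 34.2, 8.84 and 36.0 TMM-scaled CPM in CD11c+ cells and 39.4, 28.9 and 25.9 in CD11c- cells. The low value was replicate 2, with 24 counts, and the log2 fold change was -0.23 ± 0.50 (SE, adjusted p = 0.926, edgeR) with it and 0.19 ± 0.20 (adjusted p = 0.604) without it.

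The gene body of Il18 overlaps that of Bco2 on the opposite strand, with no exonic base shared. Bco2 had 113 and 113 TMM-scaled CPM in 9-month CD11c+ cells and 40.8 and 38.8 in 9-month CD11c- cells.

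**Figure D2:**
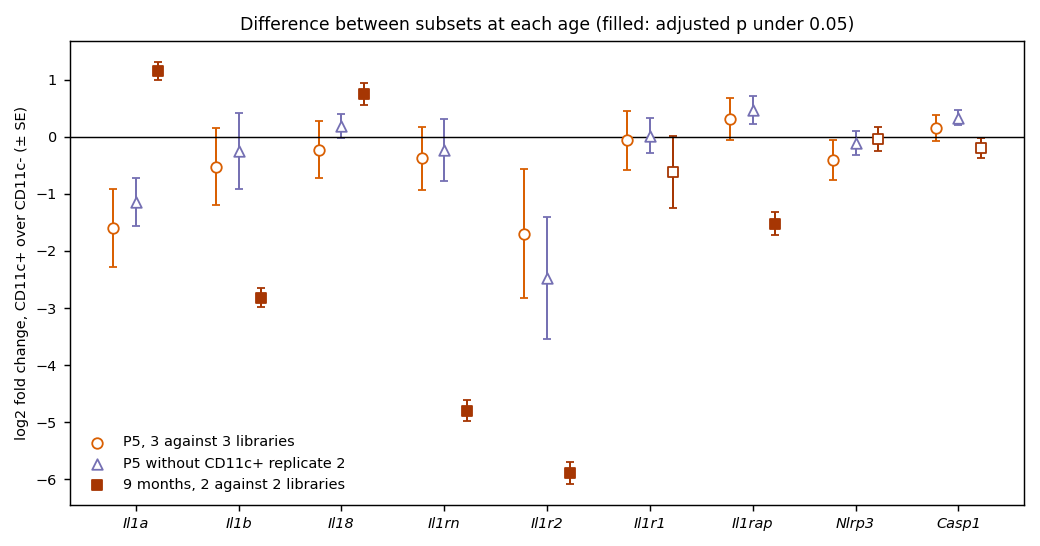
Log2 fold change of each gene, CD11c+ over CD11c-, with its SE, from edgeR. Circles are P5 with all 6 libraries, triangles P5 without CD11c+ replicate 2, squares 9 months, and filled symbols passed the adjusted threshold of 0.05. All filled symbols are 9-month values, from -5.88 for Il1r2 to 1.15 for Il1a; Il1a and Il18 turn negative when scaled to microglia genes.

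The inhibitors of IL-1 signalling showed the widest separation among the 9 genes. Il1rn, the antagonist that occupies IL-1R1 without signalling, had 4.91 and 4.91 TMM-scaled CPM in 9-month CD11c+ cells, against 138 and 134 in 9-month CD11c- cells. This was a log2 fold change of -4.79 ± 0.18 (SE, adjusted p = 2.73e-05, edgeR), 27.7-fold lower. Per 1000 neutrophil-marker counts, Il1rn had 1.74 and 2.54 counts in CD11c+ cells and 0.905 and 0.575 in CD11c- cells, the other direction. The marker sum fell further than Il1rn did, so this direction alone cannot tell where the Il1rn difference came from. Per 1000 microglia-marker counts Il1rn had 0.0698 and 0.0759 in CD11c+ cells and 5.28 and 5.03 in CD11c- cells. The part of other cells in the Il1rn difference was not tested. At P5 Il1rn had 16.7, 11.4 and 13.1 TMM-scaled CPM in CD11c+ cells and 5.73, 25.9 and 22.4 in CD11c- cells, with a log2 fold change of -0.38 ± 0.55 (SE, adjusted p = 0.877, edgeR), or -0.23 (adjusted p = 0.825) without CD11c+ replicate 2. The P5 groups overlapped through CD11c- replicate 1.

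Il1r2, the decoy receptor that binds IL-1 without passing on a signal, had the highest level per kilobase of exon of the 9 genes in any group. It had 22.6 and 24.5 TMM-scaled CPM in 9-month CD11c+ cells, against 1249 and 1529 in 9-month CD11c- cells. The log2 fold change was -5.88 ± 0.19 (SE, adjusted p = 2.63e-05, edgeR), 59.0-fold lower. Per 1000 neutrophil-marker counts, Il1r2 had 7.99 and 12.7 counts in CD11c+ cells and 8.17 and 6.54 in CD11c- cells, so the ranges overlapped on that measure. The part of neutrophil RNA in the Il1r2 difference was not tested. At P5 Il1r2 had 1.28, 6.26 and 2.24 TMM-scaled CPM in CD11c+ cells and 0.93, 20.6 and 9.02 in CD11c- cells, a log2 fold change of -1.70 ± 1.12 (SE, adjusted p = 0.7999, edgeR). Without CD11c+ replicate 2 it was -2.48 ± 1.06 (adjusted p = 0.183), a level 5.57-fold lower in place of 3.24-fold. Without CD11c- replicate 2, the highest library, it was -0.72.

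The signalling receptor showed no such separation. Il1r1, the chain that binds the ligand and carries the signal, was the lowest of the 9 genes per kilobase of exon at 9 months, with 2.996 and 2.97 TMM-scaled CPM in CD11c+ cells, against 7.29 and 1.87 in CD11c- cells. The CD11c- libraries lay on both sides of the CD11c+ libraries, and the log2 fold change of -0.62 ± 0.63 (SE, adjusted p = 0.493, edgeR) did not pass. Its sign rested on single libraries, at 0.68 without CD11c- replicate 1 and -1.22 without CD11c- replicate 2, where it passed (adjusted p = 0.0325). At P5 it had 3.06, 3.31 and 4.43 TMM-scaled CPM in CD11c+ cells and 3.55, 4.30 and 3.48 in CD11c- cells, a log2 fold change of -0.066 ± 0.52 (SE, adjusted p = 0.986, edgeR), or 0.018 (adjusted p = 0.977) without CD11c+ replicate 2.

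Il1rap, the accessory chain shared by IL-1 and IL-33 receptors, had 11.8 and 12.3 TMM-scaled CPM in 9-month CD11c+ cells, against 31.8 and 37.4 in 9-month CD11c- cells. The log2 fold change was -1.52 ± 0.21 (SE, adjusted p = 0.00215, edgeR), 2.87-fold lower. At P5 it had 12.8, 9.20 and 11.9 TMM-scaled CPM in CD11c+ cells and 7.04, 11.2 and 9.22 in CD11c- cells, a log2 fold change of 0.31 ± 0.36 (SE, adjusted p = 0.848, edgeR), or 0.46 (adjusted p = 0.271) without CD11c+ replicate 2.

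Neither gene of the inflammasome core passed at 9 months under TMM scaling, and both were called lower when scaled to microglia genes. That scaling called 60.7% of all genes lower. Nlrp3, the sensor, had 76.9 and 55.2 TMM-scaled CPM in 9-month CD11c+ cells, against 70.3 and 65.8 in CD11c- cells, and the CD11c+ libraries lay on both sides of the CD11c- libraries. Its log2 fold change was -0.04 ± 0.20 (SE, adjusted p = 0.895, edgeR), and -1.40 (adjusted p = 0.000937) scaled to microglia genes. At P5 Nlrp3 had 101, 58.9 and 141 TMM-scaled CPM in CD11c+ cells and 120, 161 and 120 in CD11c- cells, with a log2 fold change of -0.41 ± 0.36 (SE, adjusted p = 0.809, edgeR), or -0.12 (adjusted p = 0.763) without CD11c+ replicate 2.

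Casp1, the protease, had 59.5 and 58.3 TMM-scaled CPM in 9-month CD11c+ cells, against 62.2 and 72.9 in CD11c- cells. The groups did not overlap, as for 33.8% of all genes in that direction, but the log2 fold change of -0.20 ± 0.17 (SE, adjusted p = 0.420, edgeR) did not pass. It was -1.54 (adjusted p = 0.000413) scaled to microglia genes and 0.18 with plain library totals. At P5 Casp1 had 70.3, 48.6 and 69.8 TMM-scaled CPM in CD11c+ cells and 53.1, 61.2 and 55.9 in CD11c- cells, with a log2 fold change of 0.15 ± 0.23 (SE, adjusted p = 0.883, edgeR), or 0.33 ± 0.13 (adjusted p = 0.162) without CD11c+ replicate 2.

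Compared per kilobase of exon, the order of the genes differed between the 9-month subsets. In CD11c+ cells Il1a led with a mean of 339 ± 35.8 TMM-scaled CPM per kb (SD, n = 2), followed by Il1b (39.8 ± 5.05), Casp1 (39.4 ± 0.53), Il18 (33.2 ± 3.07), Nlrp3 (16.3 ± 3.78) and Il1r2 (12.3 ± 0.70). The ranges of 1 SD around the mean overlapped between Il1b and Casp1, between Il1b and Il18, and between Nlrp3 and Il1r2. In CD11c- cells Il1r2 led with 728 ± 104 TMM-scaled CPM per kb, followed by Il1b (280 ± 12.1), Il1a (153 ± 19.3), Casp1 (45.1 ± 5.02), Il1rn (24.6 ± 0.50), Il18 (19.9 ± 0.19) and Nlrp3 (16.8 ± 0.78). No such ranges of neighbours overlapped in that subset. The remaining genes lay between 0.469 and 1.06 per kb in CD11c+ cells and at 3.05 (Il1rap) and 0.719 (Il1r1) in CD11c- cells.

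At P5 the upper places were close together. Casp1 led in both subsets, with 42.0 ± 8.27 TMM-scaled CPM per kb in CD11c+ cells and 37.9 ± 2.75 in CD11c- cells (SD, n = 3 each). In CD11c+ cells Il18 (25.6 ± 14.7), Nlrp3 (24.7 ± 10.1), Il1b (24.0 ± 8.11) and Il1a (11.4 ± 11.1) followed, and in CD11c- cells Il1a (35.6 ± 4.15), Il1b (34.9 ± 23.8), Nlrp3 (32.9 ± 5.78) and Il18 (30.5 ± 6.88). The ranges of 1 SD overlapped between each of these 5 genes and the next in both subsets. The other 4 genes lay between 0.566 and 2.49 per kb in CD11c+ cells and between 0.594 and 5.34 in CD11c- cells.

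In the P5 comparison 0 of the 9 genes passed edgeR's adjusted threshold, where 0.299% of 15410 genes did, all of them higher (0% lower). No member had an unadjusted p under 0.05, and DESeq2's Wald test also called 0 members, with 1 at an unadjusted p under 0.05. Without CD11c+ replicate 2, 9.48% of genes passed (5.06% higher, 4.42% lower) and still 0 members, with 2 at an unadjusted p under 0.05 (Il1a and Casp1).

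Whether the subset difference itself changed with age was asked by an interaction term over all 10 libraries, 9 months minus P5. Il1rn alone passed, with a difference of -4.26 ± 0.77 (SE, adjusted p = 0.0264, edgeR), in a test that called 1.86% of 19555 genes (0.302% higher, 1.56% lower). Il1a had 2.86 ± 1.01 (adjusted p = 0.202), Il1r2 -3.80 ± 1.32 (adjusted p = 0.197), Il1rap -1.67 ± 0.48 (adjusted p = 0.118) and Il1b -2.15 ± 0.96 (adjusted p = 0.309). Without P5 CD11c+ replicate 2, 19.1% of genes passed (8.76% higher, 10.3% lower), and Il1a (2.40, adjusted p = 0.0145), Il1rn (-4.46, adjusted p = 0.00198) and Il1rap (-1.88, adjusted p = 0.00482) were called. Il1a also passed without P5 CD11c+ replicate 3 (4.03, adjusted p = 0.0388). The Il1rn call was lost in 7 of the 10 fits that left out 1 library: each of the 4 9-month libraries, P5 CD11c+ replicate 1 and P5 CD11c- replicates 2 and 3. The estimate stayed between -4.46 and -3.82 over the 10 fits, with adjusted p from 0.00198 to 0.390. The kit change between ages cannot be told apart from age here either.

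**Figure D3:**
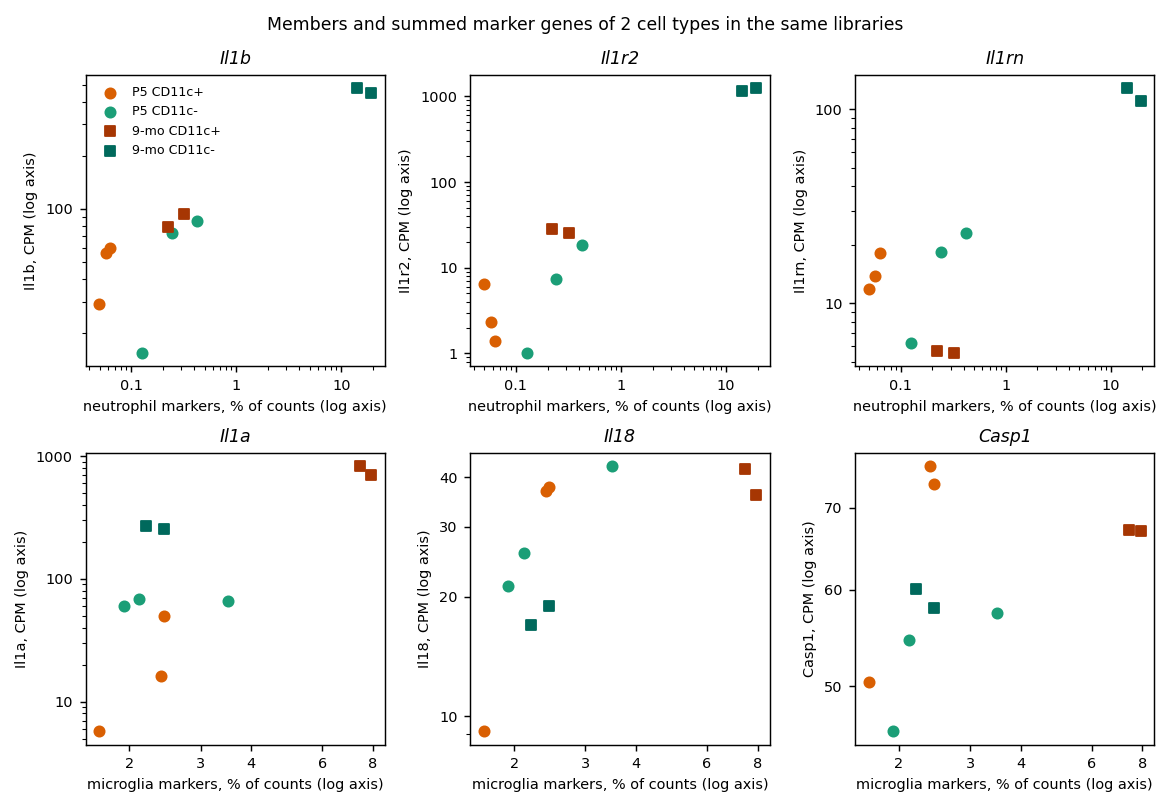
Levels of 6 genes in each library against summed marker genes in the same library, on log axes: CPM on plain library totals against percent of library counts, neutrophil markers in the upper row and microglia markers in the lower row. Circles are P5 and squares 9 months. The 9-month CD11c- libraries, at 14.2% and 19.3% neutrophil markers, hold the highest Il1b, Il1r2 and Il1rn. The 9-month CD11c+ libraries, at 7.92% and 7.43% microglia markers, hold the highest Il1a.

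Beyond the 9 genes, 14 other ligands, receptors and binding proteins of the IL-1 family were followed, of which 7 were tested at 9 months. Of these 2 were higher in CD11c+ cells, 4 lower and 1 did not pass, with a median log2 fold change of -2.24 against 0.02 over all genes tested, of which 14.8% were higher and 18.2% lower. Scaled to microglia genes, 0 were higher and 5 (71.4%) lower, where 0.534% of all genes were higher and 60.7% lower. Il36g, an IL-36 ligand, had 5.12 and 2.82 TMM-scaled CPM in 9-month CD11c+ cells, against 297 and 328 in CD11c- cells, a log2 fold change of -6.29 ± 0.31 (SE, adjusted p = 3.93e-05, edgeR). Both chains of the IL-18 receptor were lower, Il18r1 by a log2 fold change of -4.98 ± 0.57 (SE, adjusted p = 0.00104, edgeR) and Il18rap by -4.52 ± 0.27 (adjusted p = 6.78e-05). The summed neutrophil, lymphocyte and eosinophil, basophil and mast cell markers were lower in the same libraries, and their part in these differences was not tested. Il18bp, which binds and neutralises IL-18, had 6.93 and 8.58 TMM-scaled CPM in CD11c+ cells, against 39.8 and 33.3 in CD11c- cells (log2 fold change -2.24 ± 0.23, adjusted p = 0.000693, edgeR). Il1rl1, the IL-33 receptor, was higher at 1.25 ± 0.36 (adjusted p = 0.0360), and turned to -0.10 under scaling to microglia genes. That call did not survive leaving out either CD11c+ library (adjusted p = 0.213 without replicate 1, 0.0958 without replicate 2) or CD11c- replicate 1 (0.0524). The second higher gene, named after its value was seen, was Il1rl2, the IL-36 receptor (1.53 ± 0.21, adjusted p = 0.00225). For the difference between ages, 2 of 9 tested genes passed, Il18rap (-2.99 ± 0.46, adjusted p = 0.0190) and Il36g (-3.61 ± 0.75, adjusted p = 0.0444). Over all genes that test called 0.302% higher and 1.56% lower.

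Of 20 genes of the signal chain below the receptors, 3 were higher in 9-month CD11c+ cells, 4 were lower and 13 did not pass, with a median log2 fold change of 0.03. These shares of 15% and 20% lay near the 14.8% and 18.2% of all genes. Scaled to microglia genes, 0 were higher and 18 (90%) lower, where 0.534% of all genes were higher and 60.7% lower. Irak3, an inhibitory member of the receptor kinase family, had 15.6 and 13.9 TMM-scaled CPM in CD11c+ cells, against 68.9 and 65.8 in CD11c- cells (log2 fold change -2.19 ± 0.18, adjusted p = 0.000277, edgeR). Peli1, a ubiquitin ligase acting on the kinases, was lower at -1.95 ± 0.43 (adjusted p = 0.0143), and its call was lost without CD11c- replicate 2 (-1.46, adjusted p = 0.0584). Nfkb1, an NF-κB subunit, was higher at 1.09 ± 0.16 (adjusted p = 0.00295) and Irak2, an activating kinase, at 0.78 ± 0.18 (adjusted p = 0.0162), while under scaling to microglia genes they were at -0.26 and -0.57. Named after their values were seen, the other called genes were Tnfaip3 (0.89), a brake on NF-κB, and Irak1 (-1.16) and Tab3 (-1.32). Myd88, the adaptor of the receptors, had a log2 fold change of -0.43 ± 0.16 (SE, adjusted p = 0.0822, edgeR).

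Of 26 other inflammasome genes, 24 were tested, and 6 were higher in 9-month CD11c+ cells, 5 were lower and 13 did not pass, with a median log2 fold change of 0.42, against 14.8% of all genes higher and 18.2% lower. Scaled to microglia genes, 0 were higher and 17 (70.8%) lower, with a median of -0.93. Under that scaling 0.534% of all genes were higher and 60.7% lower, with a median of -1.32. The ATP-gated channel P2rx7, which triggers NLRP3 through potassium loss, had 283 and 218 TMM-scaled CPM in CD11c+ cells, against 95.01 and 82.3 in CD11c- cells (log2 fold change 1.497 ± 0.18, adjusted p = 0.00135, edgeR). The related channel P2rx4 had 176 and 181 in CD11c+ cells, against 55.9 and 68.0 in CD11c- cells (1.52 ± 0.17, adjusted p = 0.000828). Under scaling to microglia genes these 2 channels were at 0.14 and 0.18 and were no longer called. The other higher genes under TMM scaling were Aim2 (1.01, adjusted p = 0.00766, edgeR), Kcnk6 (0.95), Txnip (0.87) and Casp8 (0.80), named after their values were seen. The lower genes included Nlrp12 (-5.43 ± 0.65, adjusted p = 0.00123) and Mefv (-3.39 ± 0.26, adjusted p = 0.000176), which encodes the sensor pyrin, and Gsdme (-2.59 ± 0.17, adjusted p = 8.7e-05), a pore-forming gasdermin, with Panx1 (-2.13) and Ptpn22 (-1.64), named after their values were seen.

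Pycard, Gsdmd and Casp4, which act with or beside Nlrp3 and Casp1, did not pass at 9 months under TMM scaling. Pycard, the adaptor ASC, had 164 and 154 TMM-scaled CPM in CD11c+ cells, against 143 and 141 in CD11c- cells (log2 fold change 0.16 ± 0.14, adjusted p = 0.422, edgeR). Gsdmd, the pore that caspase-1 opens, had 224 and 189 in CD11c+ cells, against 159 and 132 in CD11c- cells (0.50 ± 0.17, adjusted p = 0.0595). Gsdmd passed without CD11c+ replicate 2 (0.66, adjusted p = 0.0318), without CD11c- replicate 1 (0.64, adjusted p = 0.0461) and with plain totals, and Pycard passed with plain totals. Casp4, the sensor protease of the non-canonical route, was at -0.41 ± 0.19 (adjusted p = 0.143). Scaled to microglia genes, all 3 were called lower, Pycard at -1.19, Gsdmd at -0.85 and Casp4 at -1.75. So were 60.7% of all genes, with a median of -1.32. At P5 none of the genes tested in these 3 lists passed with all libraries by edgeR (8, 20 and 24 tested), where 0.299% of all genes did. Leaving out P5 CD11c+ replicate 2 called 5.06% of all genes higher and 4.42% lower. In that fit the 3 lists had 0, 0 and 4 genes higher and 2, 1 and 0 lower. Without P5 CD11c+ replicate 2, Il18rap (-1.30, adjusted p = 0.0239), Il36g (-2.72, adjusted p = 0.0382) and Chuk (-0.59) were lower, and P2rx4 (1.16, adjusted p = 0.00461), P2rx7 (0.94, adjusted p = 0.0339), Ninj1 (1.104) and Txnip (0.81) were higher, with Chuk, Ninj1 and Txnip named after their values were seen.

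**Figure D4:**
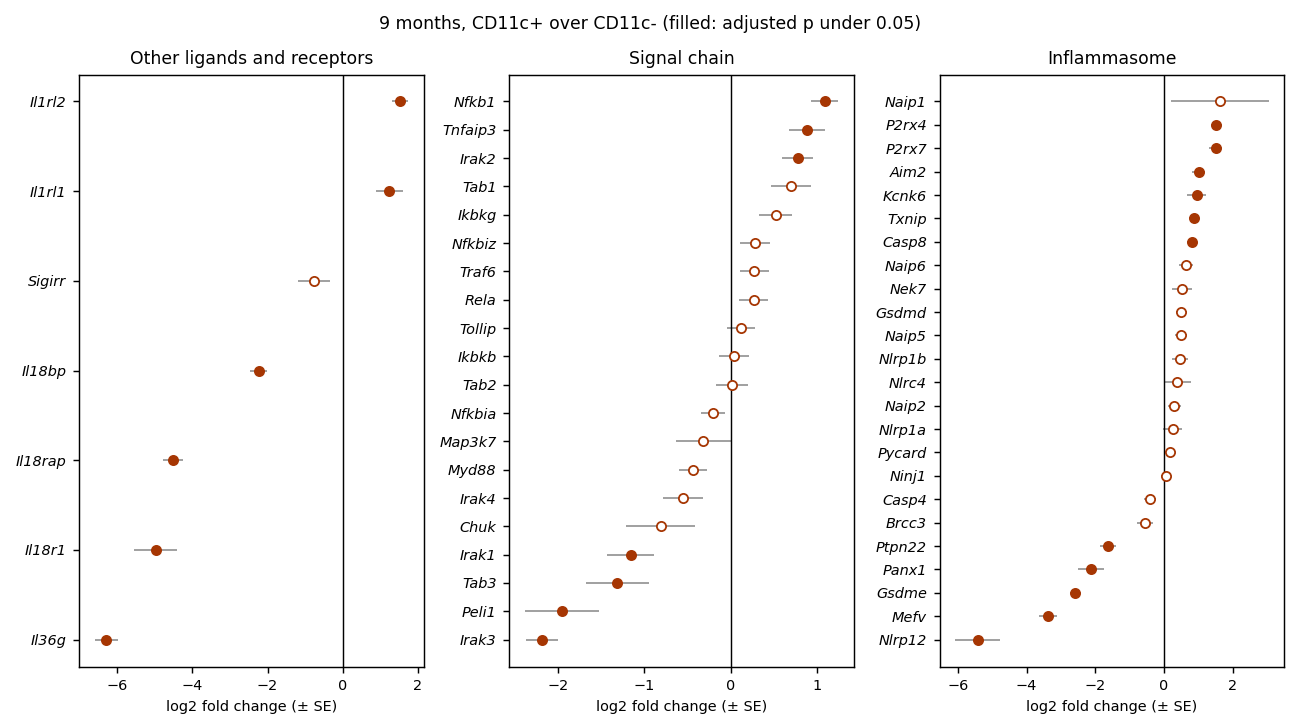
Log2 fold change with its SE at 9 months, CD11c+ over CD11c-, for the other ligands and receptors (7 tested), the signal chain (20) and other inflammasome genes (24), from edgeR. Filled points passed the adjusted threshold of 0.05. The receptor panel reaches from -6.29 for Il36g to 1.53 for Il1rl2, and the positive values of Il1rl1, Nfkb1, Irak2, Pycard and Gsdmd turn negative under scaling to microglia genes.

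By likeness of profile over the 10 libraries, measured as the root mean square difference of log2 CPM after centring each gene within each age, the closest of 9203 genes to Il1b were Fgr (0.173), Sirpb1b (0.187) and Clec12a (0.244), against a median of 1.24. For Il18 they were Clcc1 (0.103), Ulk3 (0.105) and Cd164 (0.109), against a median of 0.620. For Casp1 they were Dusp11 (0.0717), Sdcbp (0.0809) and Sdhb (0.0815), against a median of 0.464. Without P5 CD11c+ replicate 2, Fgr stayed the closest to Il1b, while Clcc1 ranked 25 for Il18 and Dusp11 13 for Casp1.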

How the data were processed

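Sorted CD11c+ and CD11c- microglia gave 10 RNA-seq libraries. The authors deposited raw counts per gene; the submitters' processing notes name Trimmomatic 0.36, STAR 2.5.2b and Subread 1.5.2, and the genome build and the strand setting are not given in the sources used here. A reference name table gave symbols to 48970 of 49315 gene IDs. Counts were tested with edgeR 4.0.16 in R 4.3.3 (filterByExpr, TMM, quasi-likelihood F-test, Benjamini-Hochberg over all genes tested, threshold 0.05), each age on its own libraries and the difference between ages as an interaction over all 10. The fits were tested on simulated data whose spread was estimated without P5 CD11c+ replicate 2. That test therefore does not cover the spread of fits that include this library. SE is the log2 fold change divided by the square root of F. Alternatives were DESeq2 1.42.0 and its size factors, no filter, scaling to homeostatic microglia genes, a replicate block, a fit of all 10 libraries, leaving out each library, and plain library totals, the last chosen after seeing the data. Replicates differed by more than sampling noise (chi-square per degree of freedom 28.3 to 244). The members and lists were chosen with earlier results of these data known. Named genes were the 9 members, 7 fixed pathway genes and up to 4 called genes per list with the smallest p at each age; likeness was ranked for Il1b, Il18 and Casp1 with a prior count of 2.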

Additional observations from a re-analysis of the deposited data

Results flagged for a closer look

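Il1rn differed between ages in its subset difference: the interaction term was -4.26 on the log2 scale (adjusted p = 0.0264, edgeR), from -0.38 at P5 and -4.79 at 9 months. The call was lost in 7 of the 10 fits that left out 1 library (adjusted p from 0.00198 to 0.390 over the 10). Il1a separated every library in opposite directions at the 2 ages, with a log2 fold change of -1.60 at P5 and 1.15 at 9 months. The 9-month value was -0.19 under scaling to microglia genes. Full separation was common at 9 months, where 36.1% of all genes had all CD11c+ libraries above all CD11c- libraries. At P5 8.68% had all CD11c+ libraries below. The difference between ages for Il1a was tested at 2.86 and did not pass (adjusted p = 0.202, edgeR).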

How the results depend on the processing

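Library choice and scaling set most limits here. The P5 count of called genes, 46, became 555 with DESeq2, 138 in the fit of all 10 libraries, 75 with plain library totals, and 0 to 1501 when 1 library was left out. At 9 months the 5202 called genes became 9635 scaled to microglia genes and 1158 in the fit of all 10 libraries, with 4006 to 6087 when leaving out 1 library, and the 6 called members became 2 in the fit of all 10 (Il1r2 and Il1rn), 8 scaled to microglia genes (0 higher, 8 lower), and 5 to 7 when leaving out 1 library. The split at 9 months, 2333 higher and 2869 lower, became 84 and 9551 scaled to microglia genes, and 4005 and 2062 with plain totals, where the median of all genes moved to 0.40. The 364 genes called for the difference between ages became 623 with DESeq2 size factors, 693 with no filter, 2413 with DESeq2, 5907 scaled to microglia genes, and 0 to 3496 when leaving out 1 library; the 1 called member became 2, 2, 4, 5, and 0 to 3.

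Deviations of same-numbered libraries from their group means correlated at 0.467, 0.104 and -0.412 at P5 and at 0.0902 at 9 months. These values cannot decide whether same-numbered libraries were paired. At 9 months centring within so few libraries makes all such correlations equal in size, and at P5 CD11c+ replicate 2 stands apart. With the replicate number as a block 0 genes were called at P5, and 0 genes and 0 members for the difference (Il1rn -4.43, adjusted p = 0.117, edgeR).

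Signs turned at P5 for Il1r1 (0.27 scaled to microglia genes, 0.14 with plain totals) and Il18 (0.062 scaled to microglia genes). At 9 months, scaling to microglia genes gave Il1a -0.19, Il18 -0.60, Il1rl1 -0.10, Pycard -1.19, Gsdmd -0.85, Nfkb1 -0.26 and Irak2 -0.57; Nlrp3 was 0.016 with no filter, 0.079 in the fit of all 10 and 0.33 with plain totals, where Casp1 was 0.18. For the difference, scaling gave Il18 -0.67 and Nlrp3 -1.28. Leaving out 1 library spanned -0.33 to 0.018 (Il1r1), -0.53 to 0.19 (Il18) and -0.0015 to 0.33 (Casp1) at P5, -1.22 to 0.68 (Il1r1) and -0.25 to 0.21 (Nlrp3) at 9 months, and -0.81 to 0.93 (Il1r1) and -0.42 to 0.15 (Casp1) for the difference. In all, 478 of 558 single-gene alternatives kept direction and side of the threshold. Where leaving out a library left 1 in a group, that library was assumed to vary like the others. The causes were not tested.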
